A study of Drosophila melanogaster with 12 samples.

Results

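The troponin and tropomyosin genes of Drosophila melanogaster were examined in RNA from whole heads of adult males. Members were the probe sets that the array annotation assigns to a single gene among TpnC41C, TpnC47D, TpnC73F, TpnC25D, up, wupA, Tm1 and Tm2. Of these 8 genes, 4 had such a probe set, giving 5 of the 13966 probe sets that are not controls: 1 each for TpnC41C (CG2981), TpnC73F (CG7930) and Tm2 (CG4843), and 2 for up (CG7107). Probe sets for TpnC47D, TpnC25D, wupA and Tm1 were not analysed here, so troponin I is not represented. The genes were chosen by an earlier reading of the aggressive minus neutral differences on these same arrays, in which TpnC41C had passed. That comparison is therefore given as a description.

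The flies were Canton-S, a laboratory wild-type strain, and had been under selection on male aggression for 21 generations. The 4 populations were aggressive I and aggressive II, selected for more aggression, and neutral I and neutral II, which per the study's design text were selected for less and showed no significant response. All males were 5 days old and were frozen in pools of about 120 at the same time of the afternoon and stored in pools of about 40. Each population has 3 Affymetrix arrays, 12 in all. Each array measured pooled heads of 1 population. With 2 populations per regime, an effect of selection and chance divergence of the populations cannot be told apart with any precision. Arrays 1 and 2 of neutral I carry a line label without the word for selection, and were kept in the group of their titles. Whether the 3 arrays of a population stem from separate cultures is not given in the labels. The p-values thus measure only the spread between arrays, which may be technical.

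Striated muscle contracts when calcium binds troponin C, the sensor subunit of a complex that sits on the actin thin filament. Troponin I holds the filament off, troponin T, encoded by up (upheld), ties the complex to tropomyosin, and tropomyosin is the coiled-coil rod that covers or uncovers the myosin binding sites. Flies have several troponin C genes, used in different muscles and stages. In the fly head such muscle moves the proboscis, pharynx and antennae.

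Levels are MAS5 signals, the linear intensity that the Affymetrix algorithm gives each probe set, with all arrays scaled to the same trimmed mean. Median signal per array lay between 962.4 and 1050. Signals of different probe sets depend on their probes and are not compared with each other. Differences are on the scale log2(signal + 94.6), which understates changes of dim probe sets, and a probe set was tested where its mean signal over the 12 arrays exceeded 641, a filter that 8379 probe sets passed. Of the 5 probe sets, 4 passed: TpnC41C, both probe sets of up, and Tm2. TpnC73F did not. The labels and the intensity table name no scan or extraction batch. Of the listed markers of head tissue, 5 of 7 for photoreceptors and 4 of 6 for neurons had a probe set, of which 5 and 3 passed the filter. Markers listed for other parts of the body also passed in part. They were 3 of 6 for flight muscle, 2 of 5 for midgut and 3 of 7 for the male reproductive tract. Passing the filter therefore does not by itself identify the tissue.

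TpnC41C, a calcium-binding troponin C, was brighter in the heads of both aggressive populations than in those of both neutral populations. Its signal was 5429.9, 5993 and 5569.7 on the 3 arrays of aggressive I and 6037, 7235 and 5712 on those of aggressive II. It was 4506.5, 3625 and 4392 in neutral I and 3028, 2552 and 3112 in neutral II. The lowest aggressive array stood above the highest neutral array, so the regimes did not overlap. Aggressive arrays were above all neutral arrays for 0.764% of the 8379 probe sets, and the choice of TpnC41C used this difference. Aggressive II averaged 6328 ± 802 and aggressive I 5664 ± 293, against 4174 ± 479 for neutral I and 2897 ± 302 for neutral II (SD, n = 3 each). In that order of levels, the arrays of the 2 aggressive populations overlapped, while those of the 2 neutral populations did not. Neutral II lay below all 9 other arrays, as was so for 0.859% of all probe sets.

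**Figure D1:**
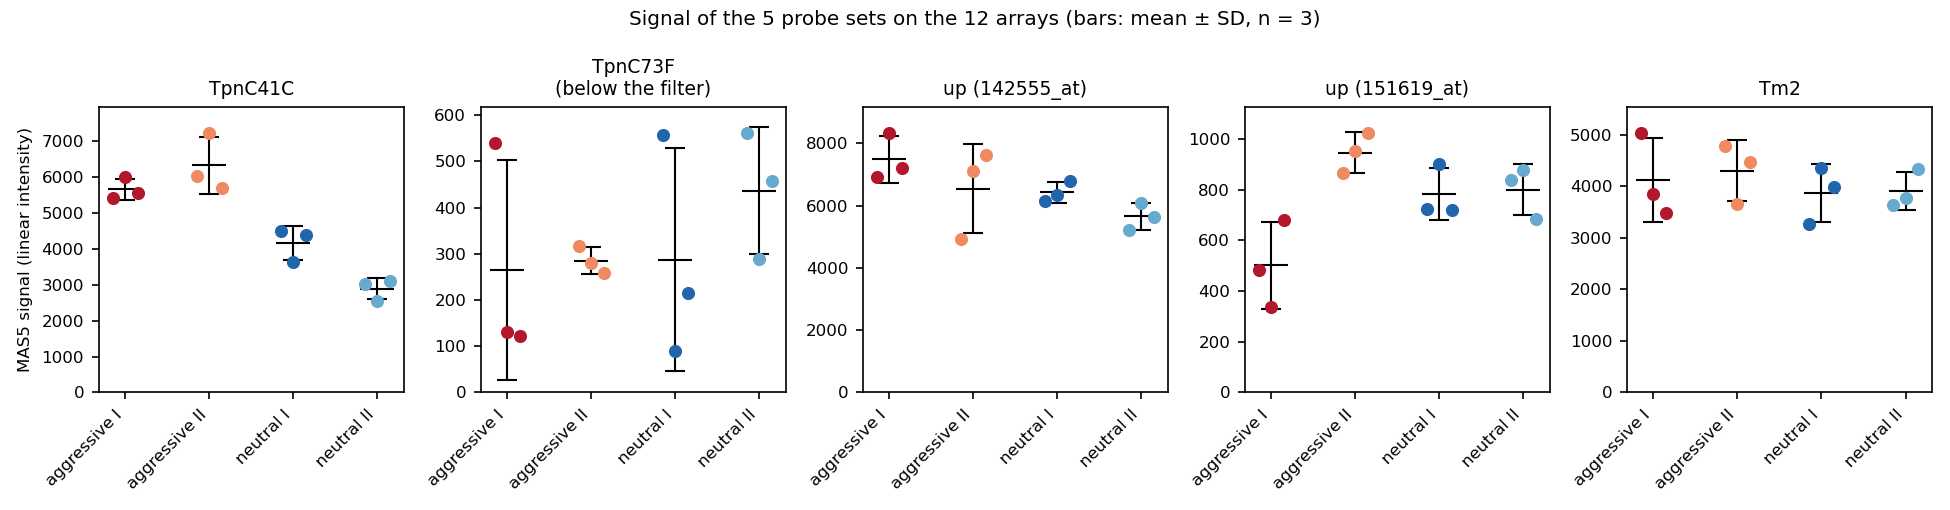
MAS5 signal (linear intensity, vertical axes from 0) of the 5 probe sets on the 12 arrays, by population; points are arrays and bars are mean ± SD over 3 arrays. TpnC41C is at 5429.9 or more on all 6 aggressive arrays and at 4506.5 or less on all 6 neutral arrays, while the regimes overlap for the other 4 probe sets, and up (151619_at) has its lowest values in aggressive I.

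Taken over the regimes, TpnC41C was 1.72-fold higher in the aggressive populations (log2 difference 0.79, SE 0.13, 95% interval 0.50 to 1.07). The fit took a low correlation of arrays within a population (0.0645), so this interval rests mostly on the spread between arrays. With 1 mean per population the SE was 0.18 (limma adjusted p = 0.904). The size differed with the populations set against each other. Aggressive I stood 0.50 above neutral I and 0.97 above neutral II. Aggressive II stood 0.61 above neutral I and 1.07 above neutral II (log2, SE 0.12 each). These pairs share arrays and are given side by side only. Both differences from neutral II were larger than those from neutral I.

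In the aggressive minus neutral comparison 1 of the 4 probe sets, TpnC41C, passed a limma adjusted p of 0.05, where 0.191% of all 8379 did. As the genes were chosen with this comparison in view, nothing is read from that count. The call ended without any single one of 9 arrays (arrays 1, 2 and 3 of aggressive I, arrays 1, 2 and 3 of aggressive II, array 2 of neutral I, and arrays 1 and 3 of neutral II), with limma adjusted p between 0.0576 and 0.0916. The log2 difference ran from 0.71 to 0.85 over the 12 arrays left out in turn. Without the whole of neutral II it was 0.55 (limma adjusted p = 0.188), and without neutral I it was 1.02 (adjusted p = 0.00396).

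**Figure D2:**
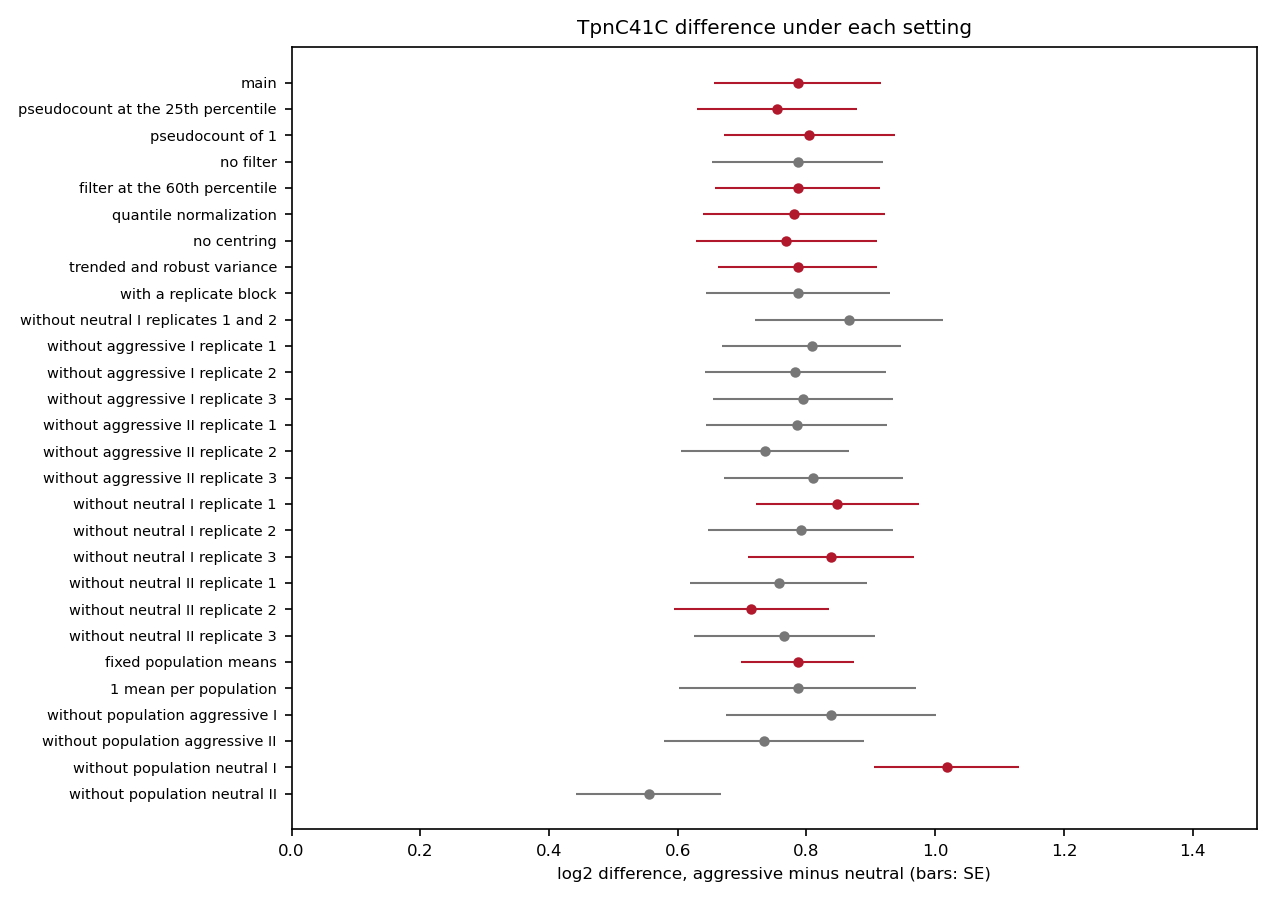
Aggressive minus neutral log2 difference of TpnC41C (horizontal axis) as reported and under each of 27 other settings; points are estimates, bars are SE, and red marks a limma adjusted p under 0.05. All 28 points lie above 0, from 0.55 without neutral II to 1.02 without neutral I, and 11 of the 27 other settings keep the call.

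Comparisons within a regime do not use the aggressive minus neutral difference, and here TpnC41C could be tested. Neutral I exceeded neutral II by a log2 difference of 0.46 (SE 0.12, 95% interval 0.19 to 0.74), which did not pass over all probe sets (limma adjusted p = 0.267, unadjusted p = 0.00334). All 3 arrays of neutral I were above all 3 of neutral II, as for 5.06% of all probe sets. The difference of aggressive I minus aggressive II was -0.10 (SE 0.12, 95% interval -0.38 to 0.17, adjusted p = 0.77). The difference of the I pair (aggressive I minus neutral I) was smaller than that of the II pair by 0.57 on the log2 scale (SE 0.18, 95% interval of the contrast -0.95 to -0.18), also short of the threshold (limma adjusted p = 0.246, unadjusted p = 0.00804).

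The bacterial spike-in controls, RNAs added to the sample, had their highest population means in the aggressive regime. Their signal averaged 37998 ± 2091 on arrays of aggressive I and 40160 ± 5786 on those of aggressive II, against 33795 ± 3191 on arrays of neutral I and 35123 ± 855 on those of neutral II (SD, n = 3 each). Their part in the TpnC41C difference was not tested. The eIF4a ratio of 3' to 5' signal, a sign of RNA integrity, was 3.56 to 4.18 on the arrays of neutral I and 2.59 to 3.24 on those of neutral II. These did not overlap, and TpnC41C was also higher in neutral I. The eIF4a ratio was 3.68 to 3.74 in aggressive I and 2.92 to 3.65 in aggressive II, the population with the highest mean of TpnC41C. The GAPDH ratio averaged 4.13 ± 0.62 for neutral I and 3.56 ± 0.48 for neutral II (SD, n = 3 each), where neutral II was the lowest of the 4 populations. Their part in the difference between the neutral populations was not tested. In the bulk RNA of whole heads, a difference in the number of muscle cells and a difference in RNA per cell cannot be told apart.

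TpnC73F, the other troponin C gene with a probe set, was dim on every array. Aggressive I gave 539, 132 and 122, and aggressive II 317, 280.2 and 259. It was 557, 89.3 and 216 in neutral I and 562, 289.7 and 457.5 in neutral II. The populations overlapped, and arrays of aggressive I and of neutral I differed among themselves by more than the population means did. In a fit without the filter its aggressive minus neutral difference was -0.25 (SE 0.35), less than its SE, so no difference was detectable at this signal.

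TpnC4, a troponin C of the flight muscles that was not among the 8 genes, was at 10.5 to 58.7 over the 12 arrays. That is below the filter.

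Troponin T was measured by 2 probe sets of up, 142555_at and 151619_at, which did not show the same pattern. The annotation does not say which transcripts of up each one detects. The probe set 142555_at read 6911, 8330.5 and 7207 in aggressive I and 4913, 7095 and 7620.3 in aggressive II. It read 6138, 6344 and 6786 in neutral I and 5224, 6095 and 5631 in neutral II. All 3 arrays of aggressive I were above all neutral arrays, while aggressive II held the dimmest array of the 12, so the regimes overlapped. The share of all probe sets with aggressive I above all neutral arrays was not computed, so nothing is read from that separation. Its aggressive minus neutral log2 difference was 0.22 (SE 0.12, 95% interval -0.05 to 0.49), and it did not pass. Within the regimes aggressive I minus aggressive II was 0.26 (SE 0.15, 95% interval -0.08 to 0.59) and neutral I minus neutral II 0.14 (SE 0.15, 95% interval -0.20 to 0.47). Without array 1 of aggressive II, the dimmest, the value for aggressive I minus aggressive II was 0.08 (SE 0.12).

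The probe set 151619_at was lowest in aggressive I. Its 3 arrays there read 484, 339 and 680.4, against 864, 950.5 and 1023 in aggressive II. It was 724, 902 and 721 in neutral I and 836, 877 and 686 in neutral II. All 3 arrays of aggressive I were below every array of the other populations, with array 3 of aggressive I (680.4) just under array 3 of neutral II (685.9). Once each array was centred on its own median that last gap closed, and by centred values aggressive I was separate from aggressive II but not from all other arrays.

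The log2 difference of 151619_at for aggressive I minus aggressive II was -0.79 (SE 0.20, 95% interval -1.24 to -0.35). Its unadjusted p was 0.00235, the smallest of the 4 members in that comparison, and it did not pass over all probe sets (limma adjusted p = 0.134, and 0.0503 to 0.268 over the other settings). All 3 arrays of aggressive I were below all 3 of aggressive II, as for 7.26% of all probe sets. Its difference for neutral I minus neutral II was -0.08 (SE 0.20), and the I pair difference was below the II pair difference by 0.72 (SE 0.28, limma adjusted p = 0.364). Aggressive minus neutral was -0.17 (SE 0.21, 95% interval -0.63 to 0.29), and it turned to 0.23 without aggressive I and was -0.56 without aggressive II.

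The per-array difference between the log2 values of the 2 up probe sets was larger in aggressive I than in aggressive II by 1.05. An exact two-sided permutation test gave p = 0.1, the smallest that 3 arrays against 3 allow. It could not have fallen under 0.05, so nothing is read from it. Signal of 18S rRNA, a measure of the RNA sample, had its highest population mean in aggressive I, where 151619_at was lowest. It ran from 9471 to 26074 over the arrays of aggressive I, against 4947 to 5451 in aggressive II, 5106 to 6523 in neutral I and 4126 to 11049 in neutral II. On array 2 of aggressive I the 18S rRNA reading peaked and the 151619_at reading was at its minimum. Array 2 of neutral II had the next highest 18S rRNA signal (11049) and the brightest 151619_at reading of its population (877). Without array 2 of aggressive I the aggressive I minus aggressive II difference was -0.57 (limma adjusted p = 0.268). The ratio of 3' to 5' signal of the eIF4a control, a sign of RNA integrity, also separated these populations, at 3.68 to 3.74 in aggressive I and 2.92 to 3.65 in aggressive II. The parts of 18S rRNA and of this ratio in the difference were not tested.

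Tm2, a muscle tropomyosin whose gene lies next to Tm1 with 0 genes between them in the RefSeq table, varied least of the 5 probe sets. The arrays of aggressive I read 5035, 3847 and 3472, and those of aggressive II 4785, 3652 and 4480. It was 3267, 4357 and 3988 in neutral I and 3627, 3767 and 4336 in neutral II. The ranges of all 4 populations overlapped. Aggressive minus neutral was 0.12 (SE 0.12, 95% interval -0.14 to 0.39), an interval below the estimate for TpnC41C. Aggressive I minus aggressive II was -0.02 (95% interval -0.40 to 0.35) and neutral I minus neutral II -0.07 (95% interval -0.44 to 0.30).

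Over the 12 arrays, the coefficient of variation was 13.5% for Tm2, 15.3% for up (142555_at), 25.9% for up (151619_at), 30.6% for TpnC41C and 54.1% for TpnC73F. Within single populations that of TpnC41C was between 5.18% and 12.7%, and that of Tm2 between 9.60% and 19.8%. TpnC41C thus varied mostly between populations and Tm2 mostly between arrays of a population. For TpnC41C that variation includes the aggressive minus neutral difference used in its choice, so the contrast with Tm2 is a description only.

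**Figure D3:**
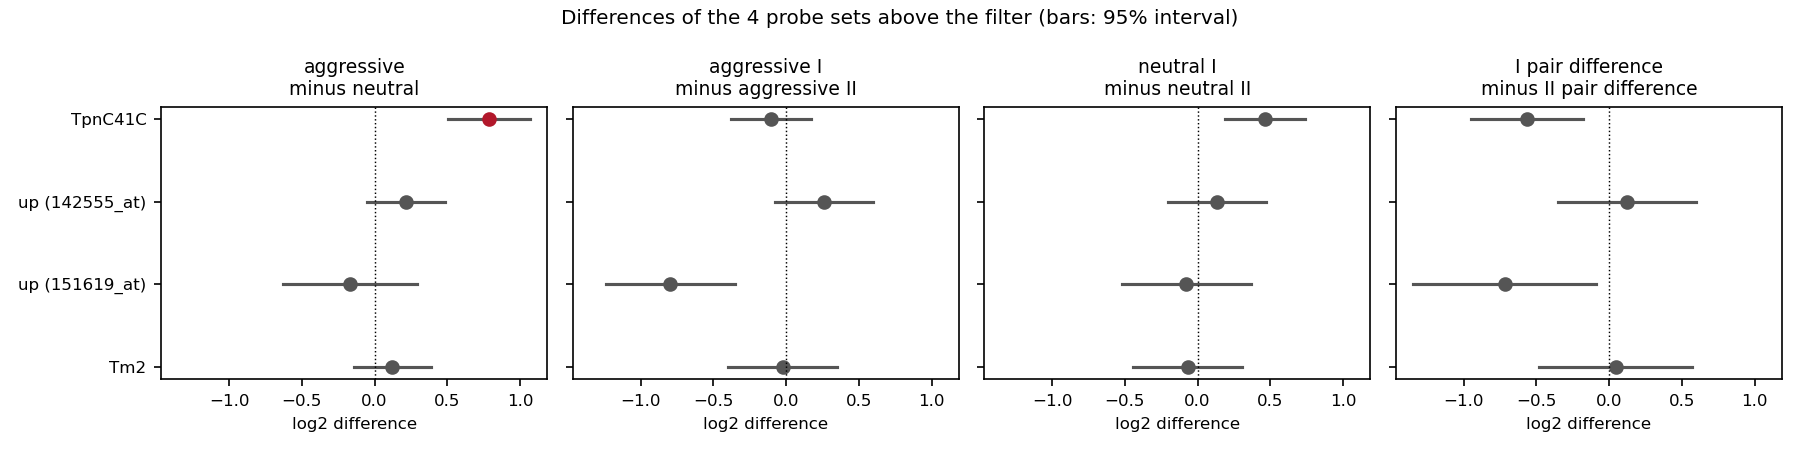
Log2 differences (horizontal axes) of the 4 probe sets above the filter in 4 comparisons; points are limma estimates, bars are 95% intervals, and red marks an adjusted p under 0.05. TpnC41C lies at 0.79 for aggressive minus neutral and 0.46 for neutral I minus neutral II, up (151619_at) lies at -0.79 for aggressive I minus aggressive II, and the intervals of Tm2 and up (142555_at) hold 0 in all 4.

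In the comparisons within regimes and in the contrast of the I and II pairs, limma called 0 of the 4 probe sets. The background was 0.597% of all probe sets for aggressive I minus aggressive II, 0.286% for neutral I minus neutral II and 0.43% for the contrast of the pairs. At an unadjusted p under 0.05 the members counted 1 (up, 151619_at), 1 (TpnC41C) and 2 (both), where 12.9%, 8.43% and 11.6% of all probe sets did. Their aggressive minus neutral differences had a median of 0.17 beside 0.01 over all probe sets, with 3 of 4 above 0. The genes were chosen with that comparison in view and 2 of the 4 probe sets belong to up, so nothing is read from these values.

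Across arrays the members' values had Pearson r between -0.53 (TpnC73F with up, 142555_at) and 0.49. TpnC41C correlated over the 12 arrays with up (142555_at) at r = 0.49, with Tm2 at 0.12 and with up (151619_at) at -0.23, and the 2 probe sets of up correlated at -0.46. By rank (Spearman) the 2 probe sets of up were at -0.14, TpnC41C with up (151619_at) at 0.04 and TpnC41C with up (142555_at) at 0.44. These are descriptions over arrays that share populations and scaling.

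The probe sets whose log2 values were most like those of TpnC41C over the 12 arrays, among 7460 compared, were CG32444 (r = 0.95), CG3397 (0.94), Tdh (0.92), CG4962 (0.92) and CG4461 (0.92). They were picked by this correlation alone. All 5 shared the order of TpnC41C between regimes: both aggressive populations averaged above neutral I, and neutral I above neutral II. CG4962, for instance, averaged 13653 ± 580 in heads of aggressive I and 15991 ± 392 in those of aggressive II, against 12104.5 ± 1392 in heads of neutral I and 8893 ± 524 in those of neutral II (SD, n = 3 each). After each population's mean was removed, their correlations with TpnC41C were 0.09, -0.14, 0.24, -0.20 and 0.12, so the likeness lay in the population means and not in single arrays.

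**Figure D4:**
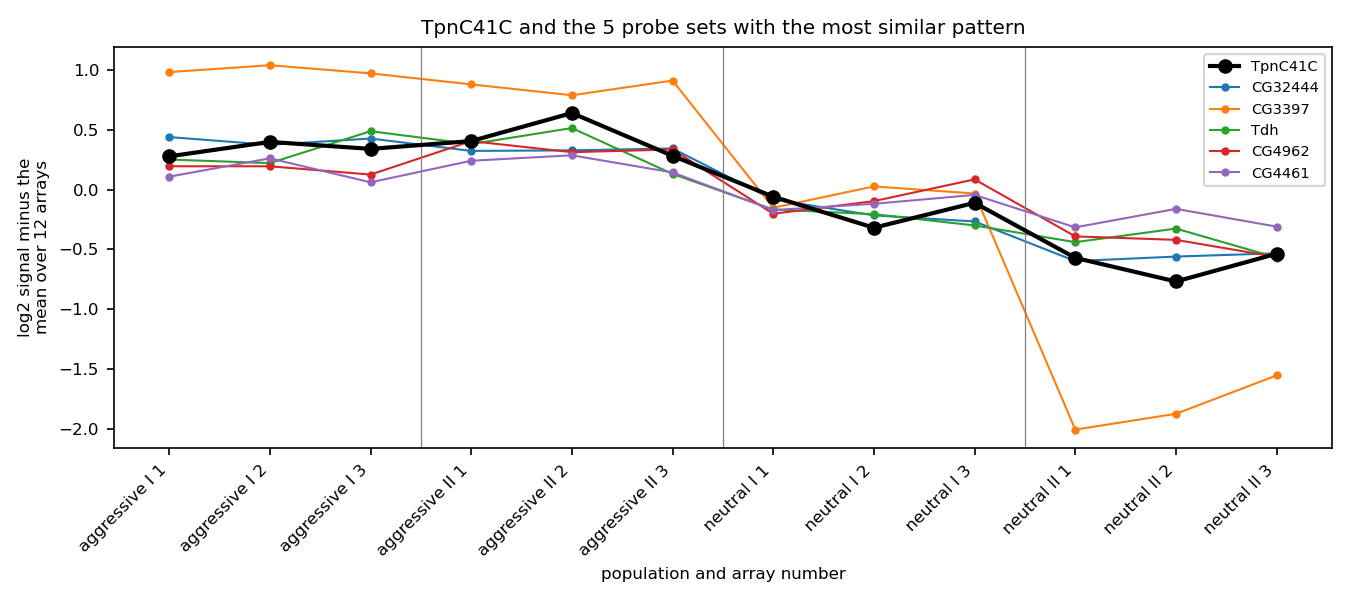
Log2 signal minus the probe set's mean over 12 arrays (vertical axis) for TpnC41C (black) and the 5 probe sets with the highest Pearson r, by population and array number (horizontal axis). All 6 probe sets are on average higher in both aggressive populations than in neutral I and lowest in neutral II, and CG3397 covers the widest range.

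The other members each had another probe set as their best match. For up (142555_at) it was mRpL38, a mitochondrial ribosomal protein gene (r = 0.90, and 0.87 within populations). For up (151619_at) it was Axud1 (0.91, and 0.77 within populations), which averaged 2851 ± 525 in heads of aggressive I and 4301 ± 625 in those of aggressive II, against 3864 ± 378 in heads of neutral I and 3945 ± 348 in those of neutral II (SD, n = 3 each). For Tm2 it was MFS16 (0.84, and 0.91 within populations). None of the best matches was another troponin or tropomyosin probe set. With 7460 probe sets compared and 4 member probe sets above the filter, such a match would be rare in any case, so nothing is read from this.

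Other genes of the contractile apparatus and its control were read from 5 lists of 51 genes, of which 36 had a probe set and 28 passed the filter. In the aggressive minus neutral comparison 1 of the 28 rose and 0 fell by limma, with a median log2 difference of 0.01 over the 28 and 17 above 0, against 0.01 over all probe sets. Within the aggressive regime 0 of 28 passed, with 7 above 0 and a median of -0.10 for aggressive I minus aggressive II, beside 0.04 over all probe sets. Within the neutral regime 0 of 28 passed and the median was -0.01.

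The gene that passed was Mlc1, the alkali light chain of muscle myosin, at a log2 difference of 0.46 (SE 0.07). Of 27 other settings 21 kept that call. Among those that lost it were 1 mean per population (limma adjusted p = 0.989) and the replicate block (0.0687). Leaving out neutral I (0.0561) or neutral II (0.183) also ended it. The lists were chosen with earlier results of these data known, so the call is a description. Within the regimes Mlc1 was at 0.00 for aggressive I minus aggressive II (95% interval -0.19 to 0.20) and 0.03 for neutral I minus neutral II (95% interval -0.17 to 0.23). Of the other thick filament genes, Mlc2, the regulatory light chain, was at 0.16 (SE 0.08) and Prm, paramyosin, at -0.22 (SE 0.16), and 4 of 5 did not pass.

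The 2 actin probe sets that passed the filter, Act79B and Act87E, are of a type whose probes match several members of a gene family, so their signals may mix actins. Act79B was at 0.19 (SE 0.12) and Act87E at -0.03 (SE 0.07) for aggressive minus neutral. Act79B averaged 10425.5 ± 1009 in aggressive I and 14779 ± 446 in aggressive II, with a log2 difference of -0.46 (SE 0.10) that was short of the threshold (limma adjusted p = 0.0789). A quantile normalization, a filter at the 60th percentile and a trended variance each gave 1 call among the lists in that comparison.

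Of 11 genes of the Z disc, the connecting filaments and the thin filament ends, 0 passed. Zasp66, a Z disc protein, was at 0.24 (SE 0.12) and Obsc, a giant protein of the sarcomere's M line, at -0.20 (SE 0.08). The pointed-end capping protein tropomodulin (tmod), which binds tropomyosin, was at 0.00 (SE 0.12). Of 9 genes of calcium handling and calmodulin relatives, 0 passed. The calcium channel subunit stj was at -0.27 (SE 0.14), the calcium release channel RyR at -0.13 (SE 0.10) and the calcium pump SERCA at 0.09 (SE 0.08). Of the muscle gene regulators 1 passed the filter, the splicing regulator mbl, at -0.59 (SE 0.15, limma adjusted p = 0.236).

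**Figure D5:**
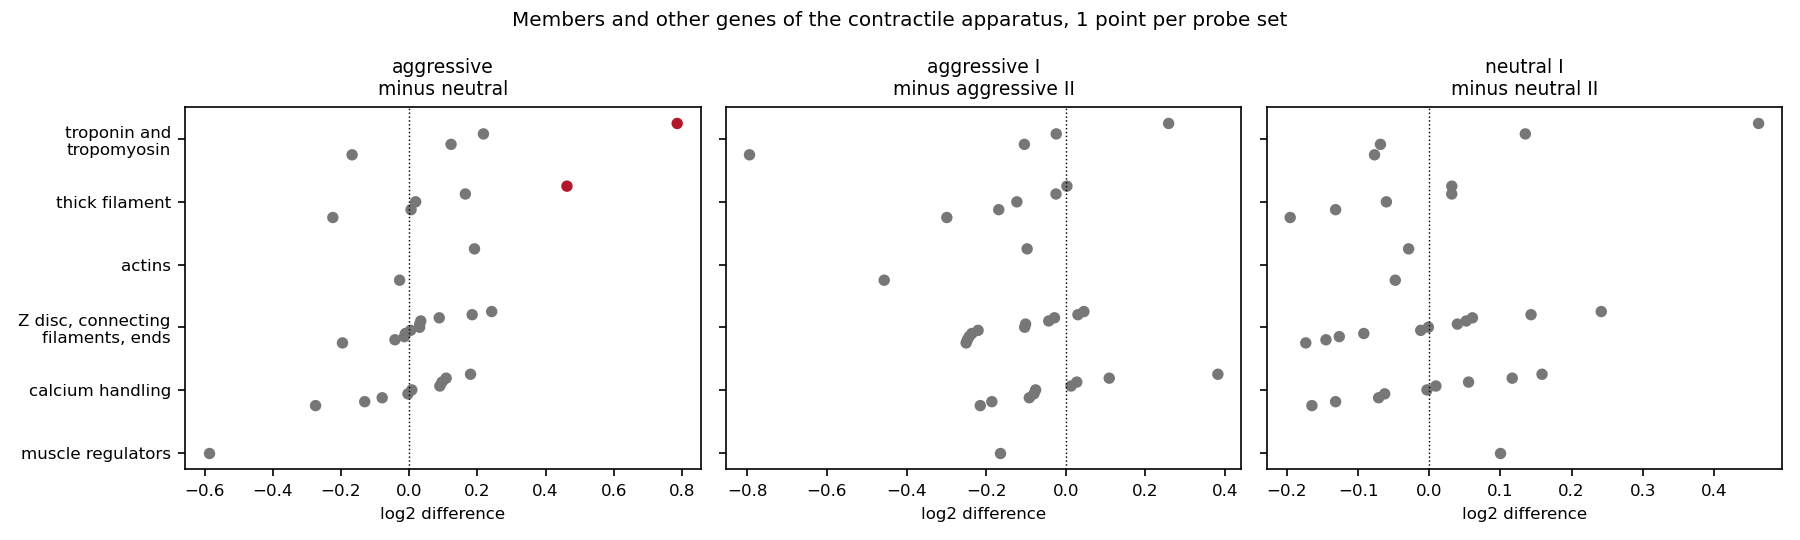
Log2 differences (horizontal axes) of the 4 troponin and tropomyosin probe sets and of 28 other genes in 5 lists (rows), in 3 comparisons; each point is 1 probe set and red marks a limma adjusted p under 0.05. TpnC41C at 0.79 and Mlc1 at 0.46 are the red points of the aggressive minus neutral panel, and the other panels have none.

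Summed muscle markers had the same order of population means as TpnC41C, with overlapping ranges, but most of the single genes did not. Of 8 general muscle markers 7 had a probe set and all 7 passed the filter, Mlc1 among them. Mlc1 and Mlc2 each had that order. Argk1 was highest in neutral II (54137.5), and Mlp84B (14627) and bt (2986) were highest in neutral I. Prm (2639) and sls (3472) were lowest in aggressive I. The summed signal of the 7 ranged from 133790 to 141894 in aggressive I and from 133203 to 148387 in aggressive II, against 129440 to 140460 in neutral I and 128778 to 136728 in neutral II. The mean sums were 137333 ± 4147 for aggressive I and 143260 ± 8710.4 for aggressive II, against 134832 ± 5514 for neutral I and 132025 ± 4170 for neutral II (SD, n = 3 each). Their part in the TpnC41C difference was not tested. Of the 6 markers of the indirect flight muscles of the thorax, 3 passed the filter (Zasp66, Mf and Strn-Mlck), with summed signals over all 6 of 32140 to 36165.5 in aggressive I and 34763 to 40514 in aggressive II, against 30889 to 34459 in neutral I and 30282 to 41604 in neutral II. All arrays of aggressive II were above those of neutral I in that sum, and the other pairs of an aggressive and a neutral population overlapped. The flight muscle genes TpnC4, Act88F and fln were below the filter on average, with highest values of 58.7, 303.7 and 321 on any array. The 3 that passed also belong to the Z disc and thick filament lists above. They gave most of the sum, in aggressive I 17485 (Zasp66), 13192 (Mf) and 3029 (Strn-Mlck) of a mean of 34024. The sum is therefore not read as a measure of flight muscle.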

How the data were processed

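Each deposited value is the intensity of 1 probe set, computed by the authors with MAS5 per the submitters' processing notes (no version named there). By the values, the authors had scaled each array to a trimmed mean of 2500.4 to 2500.5 with 2% set aside at each end, so changes in total RNA are not measured. The number of arrays limits the precision. Probe sets were named from the platform annotation, updated through Entrez identifiers in RefSeq (Release 6 plus ISO1 MT, names and neighbours only). Of 13966, 12443 had 1 gene, 327 several and 1196 none.

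Here log2(intensity + 94.6), the 10th percentile, was centred on array medians, 44 controls were left out, and those brighter on average than the 40th percentile (641) were tested with limma 3.58.1 in R 4.3.3 and Benjamini-Hochberg adjustment over 8379. Aggressive minus neutral took population as a random block (consensus correlation 0.0645), and other comparisons used fixed population means. The fits were also run on simulated arrays drawn with the spread within populations only. Those arrays held no variation between populations, so the run does not test the error of aggressive minus neutral. Named list genes are those that passed and up to 2 others per list by smallest p, apart from tmod and SERCA, named after their values were seen for their part in thin filament function. TpnC4 was read with the flight muscle markers. Members and lists were chosen with earlier results of these data known. Other marker lists (neuron, photoreceptor, glia, fat body, hemocyte, midgut, male reproductive tract) were summed per array.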

Additional observations from a re-analysis of the deposited data

How the results depend on the processing

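Of the 90 counts of members called under other settings, 74 did not change. The 16 that changed were all of the aggressive minus neutral comparison, where the 1 call of TpnC41C became 0 with no filter, with a replicate block, without the 2 neutral I arrays whose line label lacks the word selected, with 1 mean per population, and without aggressive I, aggressive II or neutral II. Leaving out each array in turn gave 0 to 1. With no filter and with fewer arrays the number of tests or samples differs, and for the other settings the cause was not tested. TpnC41C stayed above 0 in all 27 settings, and of the 356 values of single members none was reversed with a call. In the other 3 comparisons the count was 0 throughout. Over all probe sets the aggressive minus neutral count of 16 ran from 0 to 70, that of aggressive I minus aggressive II (50) from 23 to 125, that of neutral I minus neutral II (24) from 15 to 59 and that of the contrast of pairs (36) from 23 to 107. Replicate numbers gave no clear pairing of the arrays. Over 18 same-numbered pairs the correlation of deviations from population means had a median of 0.0177 and 0 were above 0.1. Over 36 different-numbered pairs the median was -0.00615 and 0 were above 0.1. Arrays correlated best with their own number in 15 of 36 cases. These values do not settle whether same-numbered arrays belong together. With the replicate block the TpnC41C difference was 0.79 (limma adjusted p = 0.102), and 7 of all probe sets were called against 16 without it. MAS5 detection calls were not used here, so for TpnC73F signal over background is unknown.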

Other observations

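Of the markers of other tissues, the photoreceptor sums had the same order of population means as TpnC41C, and their part in its difference was not tested. Arr1, Arr2 and trpl each had that order, while trp and inaD were highest in neutral I. Fat body markers (5 of 6 measured passed the filter) summed to 192129 ± 5803 in heads of aggressive I and 168535 ± 14272 in those of aggressive II, against 155188 ± 8879 in heads of neutral I and 190770 ± 7483 in those of neutral II (SD, n = 3 each). These differences came mainly from the gene Lsp2, whose mean peaked at 91318 (neutral II) and was lowest at 53629 (neutral I). Its means for aggressive I and aggressive II were 88990 and 61327. Means of apolpp, the other large part, stayed between 89329 (neutral II) and 96671 (aggressive II). The sum is therefore not read as a measure of fat body. Photoreceptor markers (5 of 5) summed to 470756 ± 12384 and 507951 ± 41373 for the aggressive populations I and II, against 456465 ± 44930.4 and 431066 ± 12343 for the neutral populations I and II. Neuron markers (3 of 4) summed to 15013 ± 1776 and 17293 ± 688 for the aggressive populations I and II, against 16958 ± 449 and 15508 ± 1214 for the neutral populations I and II. Glia markers (4 of 4) summed to 61593 ± 1932 and 66498 ± 5468 for the aggressive populations I and II, against 62633 ± 3494 and 64429 ± 942 for the neutral populations I and II.

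Hemocyte markers (4 of 4) summed to 12390.5 ± 670.2 in heads of aggressive I and 12878 ± 923 in those of aggressive II, against 12084.5 ± 1860 in heads of neutral I and 13775 ± 869 in those of neutral II (SD, n = 3 each). Midgut markers (2 of 5) summed to 4129 ± 566 and 4356 ± 800.5 for the aggressive populations I and II, against 4230 ± 607 and 3526 ± 280.3 for the neutral populations I and II. Markers of the male reproductive tract (3 of 7) summed to 14661 ± 1152 and 15820.4 ± 561 for the aggressive populations I and II, against 16277 ± 542 and 14498 ± 895 for the neutral populations I and II. The ratio of 3' to 5' signal of the actin control, a measure of RNA length, was 2.45 ± 0.56 in heads of aggressive I and 1.87 ± 0.46 in those of aggressive II, against 2.66 ± 0.84 in heads of neutral I and 2.31 ± 0.39 in those of neutral II.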
